A study of Rattus norvegicus with 288 samples.

Results

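The genes described are those of the proteasome, chosen as every gene with a probe set of its own whose symbol begins with Psma, Psmb, Psmc, Psmd or Psme followed by a number. Of 14218 genes with a single-symbol probe set on the array, 41 met this rule. They were 7 subunits of the alpha ring, 9 of the beta ring (3 of them the catalytic subunits that can be exchanged), 6 ATPases and 11 other subunits of the regulatory particle, 3 assembly chaperones and 3 activators. The remaining 2, Psmc3ip and Psme3ip1, matched by symbol only: they encode proteins that bind a subunit or an activator and are not subunits themselves. Of the 41 genes, 32 had 1 probe set and 9 had several, in which case the probe set with the highest mean in the tissue was read. The 6 probe sets that list several genes were left out, so that Psmb6, Psme3 and the shared probe set of Psma3 and Psma3l were not measured alone.

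Male Sprague-Dawley rats of 7 to 8 weeks received an intravenous dose of temsirolimus (0.3 mg/kg), an inhibitor of the mTOR kinase, or its vehicle, TEM_vehicle. After 30 minutes they received by mouth sunitinib (5 mg/kg), its vehicle sterile water, sorafenib (25 mg/kg) or its vehicle F68/PG/PEG400. Sunitinib and sorafenib inhibit several receptor tyrosine kinases. Bone marrow, heart and liver were taken from the same rats at 1, 6 and 24 h after dosing, with 4 rats for each of the 8 treatments and each time, or 96 rats in all. Per the study's methods the dosing took 2 days, with 2 rats of each group on each. The array sets, stretches of the array names that enter each fit as a term, also hold 2 rats of each group each, and whether they follow the dosing days is not given in the sources used here, so that the day and the array set cannot be told apart. The untreated state was thus always a rat given TEM_vehicle and an oral vehicle, and every rat was killed with CO2. A single-drug comparison set temsirolimus against TEM_vehicle over both oral vehicles (8 rats against 8), or an oral drug against its own vehicle in rats given TEM_vehicle (4 against 4). The same contrast was also made in rats that received the other kind of drug.

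The tissue labels were checked against marker genes. The 14 hepatocyte markers averaged between about 14 and 14.47 on the log2 scale in the livers, the 11 cardiac muscle markers between 12.71 and 14.07 in the hearts, and the 10 erythroid markers between 11.77 and 13.07 in the bone marrows. Hepatocyte markers were also read in the hearts, with a lowest, median and highest level of 5.73, 6.16 and 13.91. The arrays of 5 rats stood apart in the proteasome genes or in the markers of other cells. In the liver array of rat 7M78 (TEM_vehicle and sunitinib, 24 h), 39 of the 41 genes lay below all 3 other rats of the group, with a median difference of -1.23 from their median. Its hepatocyte, macrophage, leukocyte, endothelial and adipocyte marker levels were the lowest of 96 livers, and its B cell and cardiac muscle marker levels the highest. In the bone marrow array of rat 4M45 (temsirolimus and F68/PG/PEG400, 6 h), 34 of the 41 genes lay below the other 3 rats, with a median difference of -1.59. Its erythroid, neutrophil and leukocyte markers were the lowest of 96, and its hepatocyte and cardiac muscle markers the highest. In the heart array of rat 4M46 (same treatment and time), 32 of the 41 genes lay above the other 3 rats, and the leukocyte, T and NK cell, B cell and neutrophil markers were the highest of 96. The liver array of rat 4M48 (temsirolimus and F68/PG/PEG400, 24 h), named by the study for quality, was lower than the other 3 rats in 21 genes and higher in 12. In the heart array of rat 6M68 (temsirolimus and sorafenib, 1 h), 28 of the 41 genes lay below the other 3 rats, the hepatocyte markers were the highest of 96 hearts and the cardiac muscle markers the lowest. Calls that rest on the arrays of rats 7M78, 4M45, 4M46 or 4M48 are given with and without them. The number of arrays limits the precision of every value. The p-values set each difference against the spread between rats of a group, pooled over the 24 groups. In bulk tissue, fewer cells of a type and less RNA per cell cannot be told apart.

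The proteasome is the protease that degrades proteins marked with ubiquitin. Its core particle is a barrel of alpha and beta rings: the alpha subunits form the gate, and Psmb5, Psmb6 and Psmb7 carry the active sites inside. The regulatory particle caps the barrel, where ATPases (Psmc genes) unfold the substrate and other subunits (Psmd genes) recognise it and remove its ubiquitin. Interferons induce Psmb8, Psmb9 and Psmb10, which replace the active subunits in the immunoproteasome and favour peptides for class I antigen presentation, and they also induce the activator Psme1 and Psme2. When the proteasome is inhibited, the factor Nfe2l1 raises the transcription of most subunit genes through antioxidant response elements, and the mTOR pathway is known to act on proteasome abundance.

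Promoter sequence was read for 37 of the 41 genes from the RefSeq table of build GRCr8, as the 250 bases before the start of each gene. Psma7, Psmd6, Psmd12 and Psmd14 were not matched. A loose pattern for the core of the antioxidant response element, TGANNNNGC (GCNNNNTCA on the other strand), was in 17 of the 37 (45.9%). It was in 34.7% of 33469 promoters of the same length. The base after TGA was left free, so some matches may not be such a core. The core GAAANNGAA (TTCNNTTTC on the other strand) of interferon response elements was in 7 (18.9%) against 8.12% of all. A CCAAT box (CCAAT, or ATTGG on the other strand) was in 19 (51.4%) against 34% and a GC box (GGGCGG, or CCGCCC on the other strand) in 25 (67.6%) against 30.5%. A match is a description of the letters and not evidence of binding. The promoters of Psmd5, Psmd9 and Psma5, all of which hold TGANNNNGC, are printed first. Of the 6 genes with a promoter that fell in the liver under temsirolimus, these 3 and Psmd2 hold the motif and Psma1 and Psmd8 do not. Those of Psmb10 and Psme2, which hold GAAANNGAA and varied together between rats, follow. Each runs 5′ to 3′ on the strand of its gene with the matches of either strand in capitals.
Psmd5, chr3:38548491-38548740, minus strand: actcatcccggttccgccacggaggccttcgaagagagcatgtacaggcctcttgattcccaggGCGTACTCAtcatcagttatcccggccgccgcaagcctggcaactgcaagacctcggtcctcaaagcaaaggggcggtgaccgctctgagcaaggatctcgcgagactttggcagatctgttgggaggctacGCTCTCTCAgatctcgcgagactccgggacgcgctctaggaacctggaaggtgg
Psmd9, chr12:39018265-39018514, minus strand: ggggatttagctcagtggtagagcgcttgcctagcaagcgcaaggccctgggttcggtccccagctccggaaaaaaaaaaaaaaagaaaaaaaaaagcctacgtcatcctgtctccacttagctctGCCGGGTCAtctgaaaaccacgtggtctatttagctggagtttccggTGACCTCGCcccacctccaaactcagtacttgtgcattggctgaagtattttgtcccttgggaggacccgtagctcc
Psma5, chr2:198584255-198584504, plus strand: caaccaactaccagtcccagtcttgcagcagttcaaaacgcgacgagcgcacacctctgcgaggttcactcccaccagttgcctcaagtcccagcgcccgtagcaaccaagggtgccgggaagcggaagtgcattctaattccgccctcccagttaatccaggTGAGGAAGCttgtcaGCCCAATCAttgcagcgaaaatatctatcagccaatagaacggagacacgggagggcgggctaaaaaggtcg
Psmb10, chr19:50743293-50743542, minus strand: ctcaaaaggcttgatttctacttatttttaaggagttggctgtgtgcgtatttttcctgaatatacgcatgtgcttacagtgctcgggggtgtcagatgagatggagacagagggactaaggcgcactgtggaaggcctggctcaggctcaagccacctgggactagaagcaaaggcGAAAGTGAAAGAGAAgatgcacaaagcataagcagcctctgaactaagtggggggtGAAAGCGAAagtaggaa
Psme2, chr15:33052752-33053001, minus strand: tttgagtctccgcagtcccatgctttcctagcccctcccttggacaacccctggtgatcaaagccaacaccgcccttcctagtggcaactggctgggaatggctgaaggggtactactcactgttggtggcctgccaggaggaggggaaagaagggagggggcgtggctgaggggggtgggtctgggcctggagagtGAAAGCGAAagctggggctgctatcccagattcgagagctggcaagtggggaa
Psmd5, Psmd9 and Psma5 each held 2 matches. Psmb10 held 3 matches to GAAANNGAA, the upper pair of which overlap, within 73 bases of its start, and Psme2 held 1 at 53 bases before its start. No match to GAAANNGAA was found in these letters of Psmb8 and Psmb9.

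In the 24 rats given vehicles only, the tissues differed most in the exchanged subunit Psmb8, and also in Psmd5, Psmd8, Psmd9 and Psmc3ip. Psmb8 averaged 11.61 ± 0.30 (SD, n = 24) in the liver, 11.34 ± 0.18 in the bone marrow and 9.23 ± 0.44 in the heart. The within-rat difference between liver and heart was 2.38 ± 0.41, or 5.21-fold, and 24 of 24 rats were higher in the liver. Psmb9 and Psmb10 were 1.28 ± 0.33 and 1.15 ± 0.32 higher in the liver than in the heart of the same rats, again in 24 of 24 rats, while between liver and bone marrow Psmb10 differed by -0.001 ± 0.26 and was higher in 13 of 24. The activator pair did not follow a common order. Psme1 was highest in the heart (13.03 ± 0.11, against 12.63 ± 0.12 in the liver and 11.83 ± 0.08 in the bone marrow), and Psme2 was highest in the liver (11.75 ± 0.12, against 10.96 ± 0.18 and 11.10 ± 0.17), with heart and bone marrow overlapping. The chaperone Psmd5, which helps to assemble the base of the regulatory particle, ran from 11.23 ± 0.17 in the bone marrow to 10.70 ± 0.16 in the liver and 9.51 ± 0.15 in the heart, an order that held in each of the 24 rats. The lid subunit Psmd12 had the opposite place and gave -0.92 ± 0.23 for liver minus heart, lower in the liver in all 24 rats. Liver minus heart was 1.70 ± 0.26 for the lid subunit Psmd8 and -1.42 ± 0.16 for Psmc3ip, which is no subunit, with the same direction in all 24 rats. The chaperone Psmd9 was 1.24 ± 0.27 higher in the liver, also in all 24. Psmd14 and Psme4 were read from different probe sets in different tissues, so their levels were not compared. Over the 41 genes, 19 were higher and 3 lower in the liver than in the heart in every vehicle rat. The same was not counted over all genes, so it cannot be read as particular to the proteasome genes. The values were compared as deposited, and whether the tissues were normalised together is not given in the sources used here.

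Drug effects were tested in each tissue with limma, and a gene was called where its p adjusted over 14218 genes was under 0.05. Of 126 comparisons, 14 held at least 1 called proteasome gene. The remaining comparisons held none: 39 in bone marrow, where 0.0916% of all gene tests were called, 36 in heart (0.357%) and 37 in liver (0.148%). At an unadjusted p under 0.05, limma gave 67 of 1599 tests of these genes in bone marrow, 130 of 1476 in heart and 78 of 1517 in liver. These shares were 4.19%, 8.81% and 5.14%, and those of all genes in the same comparisons were 6.22%, 9.66% and 6.16%. Comparisons with a called proteasome gene are left out here, which lowers the shares of these genes in advance. No difference from all genes can therefore be read from them. No proteasome gene was called in any of the 18 tests of interaction between an oral drug and temsirolimus, nor between the oral vehicles (9 comparisons). The map of single-drug changes shows where the calls lay: 7 in the liver at 24 h under temsirolimus, 1 in the liver under sunitinib, 6 in the heart and 2 in the bone marrow.

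**Figure D1:**
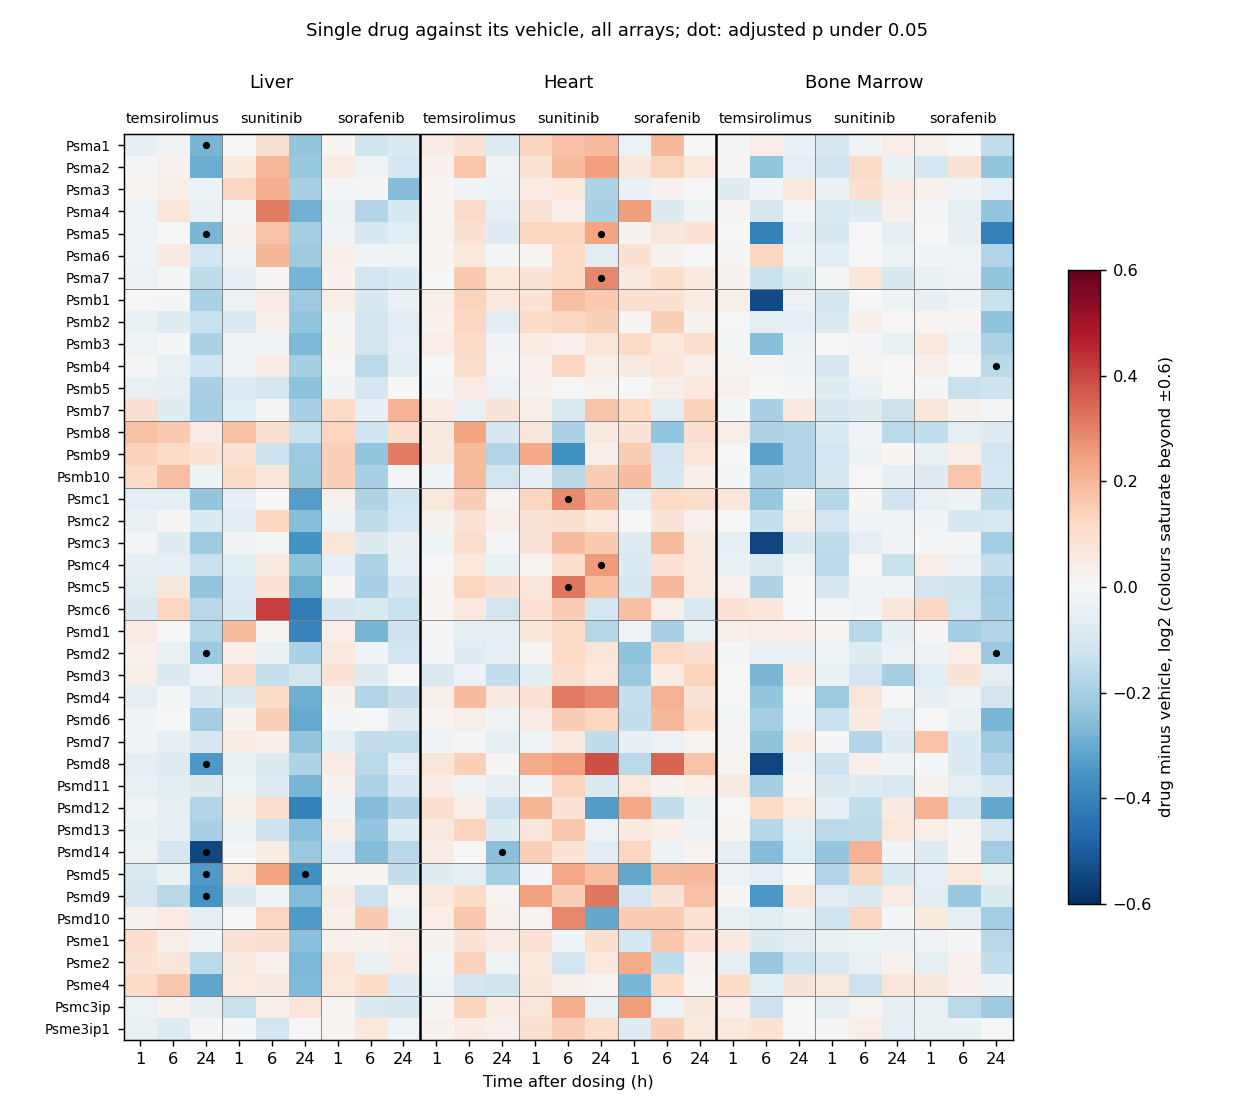
Change of each of the 41 genes (rows, grouped by role) with each single drug against its vehicle in the 3 tissues at 1, 6 and 24 h (columns), as a log2 difference by colour, with a dot on each gene called at an adjusted p under 0.05. The liver column for temsirolimus at 24 h holds 7 dots and is blue in 39 of 41 rows, and the liver column for sunitinib at 24 h, which contains rat 7M78, is blue in 40 rows with 1 dot.

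Temsirolimus was followed in the liver at 24 h by falls among the proteasome genes, with calls in the alpha ring, the regulatory particle and its chaperones. Of the 41 genes, 7 fell and none rose, where 3.09% of all genes were called (439, of which 327 fell). The median change was -0.17 for the 41 genes and 0.01 for all genes, 39 of the 41 lay below 0, and 19 had an unadjusted p under 0.05. The matching counts over all genes are not given here, so neither count can be read as particular to the proteasome genes. The genes that fell were Psmd14 and 6 others described next, from the alpha ring, the regulatory particle and the chaperones. In the beta ring 0 of 6 constitutive subunits passed the test (median -0.19, range -0.20 to -0.12), and neither did any of the 6 ATPases (median -0.19, range -0.24 to -0.08). The parts with calls had medians of -0.15 (alpha ring), -0.17 (other regulatory subunits) and -0.34 (chaperones). By the median, the alpha ring and the other regulatory subunits thus did not fall more than the beta ring and the ATPases. The exchanged subunits Psmb8, Psmb9 and Psmb10 had values of -0.03 to 0.08, with a median of 0.05.

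Psmd14 encodes the metalloprotease of the regulatory particle that removes ubiquitin chains from the substrate as it is degraded. In the livers of the TEM_vehicle rats at 24 h it was at 10.68, 10.79, 10.86 and 10.93 with sterile water and at 10.73, 10.91, 10.92 and 10.98 with F68/PG/PEG400. After temsirolimus it was at 10.11, 10.15, 10.31 and 10.50 with sterile water and at 10.26, 10.30, 10.37 and 10.44 with F68/PG/PEG400. All 8 treated livers lay below all 8 controls. The change was -0.54 ± 0.09 (SE, n = 8 against 8, adjusted p = 2.3e-05 by limma), and the level fell by 31.5%. It was -0.43 in array set 1 and -0.65 in array set 2, the 2 stretches of the array plates over which the 4 rats of each group were split. With sterile water alone it was -0.55 (adjusted p = 0.031) and with F68/PG/PEG400 alone -0.54 (adjusted p = 0.011), so both vehicle pairs gave the same size. By p, Psmd14 was number 20 of all genes in this comparison.

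The other genes that fell in the liver were smaller in change. Psmd9, a chaperone of the regulatory particle's base, had a lowest, median and highest level of 9.61, 9.77 and 9.98 in the controls and 9.29, 9.38 and 9.74 after temsirolimus, a change of -0.35 ± 0.09 (adjusted p = 0.010). Psmd5, the second chaperone, went from 10.66, 10.84 and 11.02 to 10.08, 10.56 and 10.62, a change of -0.34 ± 0.09 (adjusted p = 0.017) with no overlap between the groups. Psmd8, a lid subunit, went from 11.88, 12.08 and 12.20 to 10.79, 11.85 and 12.08, with rat 4M48 the lowest, a change of -0.35 ± 0.09 (adjusted p = 0.020). The alpha subunits Psma1 and Psma5 changed by -0.28 ± 0.08 and -0.27 ± 0.08 (adjusted p = 0.028 for each), and Psmd2, a large scaffold subunit of the base, by -0.22 ± 0.07 (adjusted p = 0.039). Of the 7 genes, only Psmd14 and Psmd5 separated the groups completely. Separation was not counted over all genes, so it cannot be read as particular to these genes. In all 7 the change was negative in both array sets. It was larger in array set 2, for example -0.11 against -0.45 for Psma1.

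The count of genes that fell depended on single liver arrays. Rat 7M78 belongs to neither group of this comparison, but it widened the spread that all 24 liver groups share. Without it, 21 of the 41 genes fell and none rose, where 8.06% of all genes were called. They were 4 of 7 alpha subunits, 5 of 6 constitutive beta subunits, 0 of 3 exchanged subunits, 4 of 6 ATPases, 5 of 11 other regulatory subunits, 2 of 3 chaperones and 1 of 3 activators. Without rat 4M48, a treated rat, Psmd14 and Psmd9 fell (250 genes called in all), and without both rats 17 fell (827 genes called). Psmd14 was called in each of these fits. With 1 rat of every group left out in turn, the count ran from 0 to 19, and the Psmd14 change from -0.66 to -0.47 with a highest adjusted p of 0.052.

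**Figure D2:**
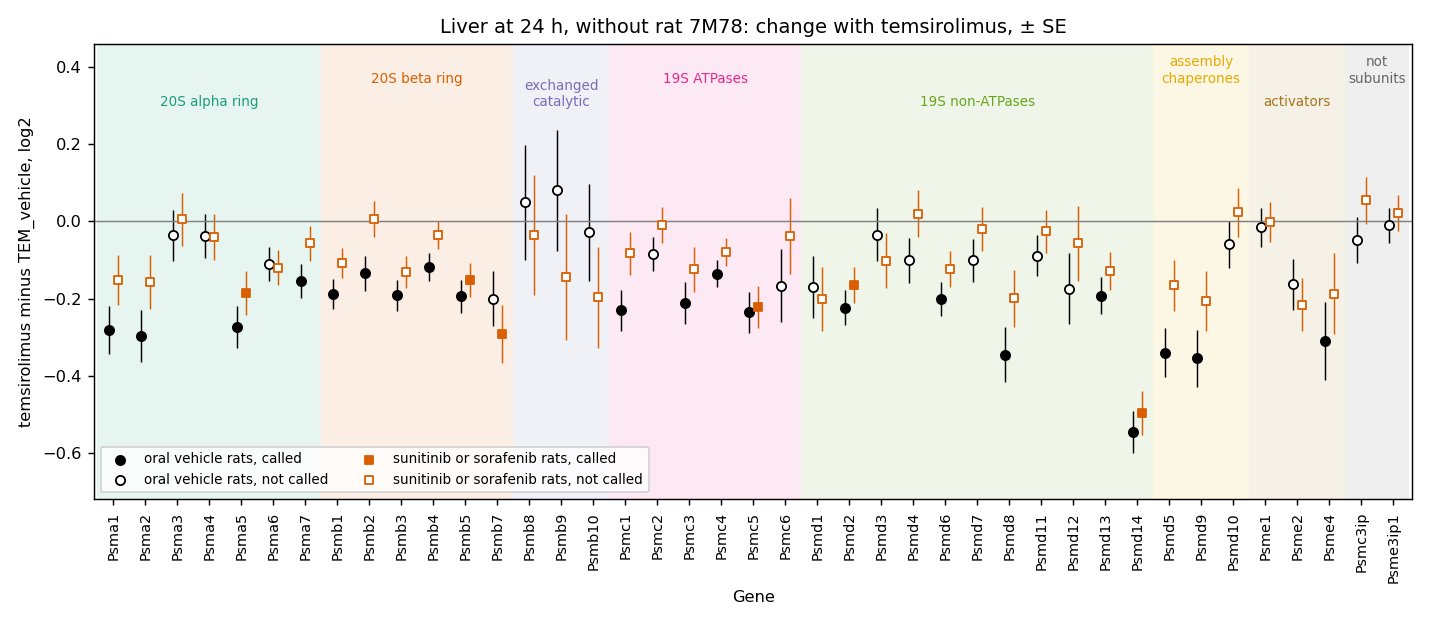
Change with temsirolimus in the liver at 24 h (vertical axis, log2 difference ± SE) for each of the 41 genes, grouped by role, fitted without rat 7M78, in rats given oral vehicles (circles, 8 against 8) and in rats given sunitinib or sorafenib (squares, 8 against 7), filled where called. Psmd14 is lowest in both, at -0.54 and -0.50, while the circles of the exchanged subunits lie between -0.03 and 0.08.

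Cell markers were read beside these changes. Of 15 proliferation markers, 6 fell in the same livers (median -0.71), 1 of 10 erythroid and 1 of 14 hepatocyte markers fell, and none of 10 leukocyte markers passed the test (median 0.04). Their part in the result was not tested. Of the other genes of the pathway, 3 of 12 in class I antigen presentation fell. These were the chaperones of the endoplasmic reticulum Calr (-0.49 ± 0.09, adjusted p = 0.00015), Canx (-0.35 ± 0.08) and Pdia3 (-0.44 ± 0.07). None of 14 other proteasome proteins, 10 transcription factors and regulators of proteasome genes, or 11 genes of ubiquitin and its shuttles passed the test there.

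In rats that also received sunitinib or sorafenib, temsirolimus was compared again in other animals. Psmd14 was at 10.11, 10.13, 10.19 and 10.39 with sunitinib and at 10.36, 10.41, 10.47 and 10.59 with sorafenib. Its controls were at 9.56 (rat 7M78), 10.88, 10.94 and 10.97 with sunitinib, and at 10.60, 10.73, 10.75 and 10.79 with sorafenib. All treated livers lay below all control livers other than rat 7M78. With all arrays the change was -0.32 ± 0.09 (adjusted p = 0.017), and Psmd14 was the only call among the 41 genes, where 7.86% of all genes were called. Without rat 7M78 it was -0.50 (adjusted p = 1.6e-09), and 6 genes fell where 3.46% of all genes were called. The others were the catalytic subunit Psmb7 (-0.29, adjusted p = 0.012), the ATPase Psmc5 (-0.22), Psma5 (-0.18), Psmd2 (-0.17) and the catalytic subunit Psmb5 (-0.15). Without rat 7M78, 5 genes were called in both comparisons and 33 of the 41 lay below 0 in both. The same was not counted over all genes, so these counts cannot be read as particular to the proteasome genes.

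Against rats given both vehicles, Psmd14 fell after temsirolimus with sunitinib, without overlap (change -0.61 ± 0.12, adjusted p = 0.0034). It was the only call among the 41 genes, where 1.06% of all genes were. Without rat 7M78, Psma1, Psmc5, Psmd1 and Psmd14 fell, with 4.44% of all genes called. With sorafenib the Psmd14 difference was -0.43 (adjusted p = 0.10), and without rat 7M78 it was of the same size with an adjusted p of 0.00031. Sunitinib alone and sorafenib alone gave -0.22 and -0.17 for Psmd14 at 24 h (adjusted p = 0.17 and 0.94). The sunitinib value rested on rat 7M78 and was 0.12 without it (adjusted p = 1.00).

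**Figure D3:**
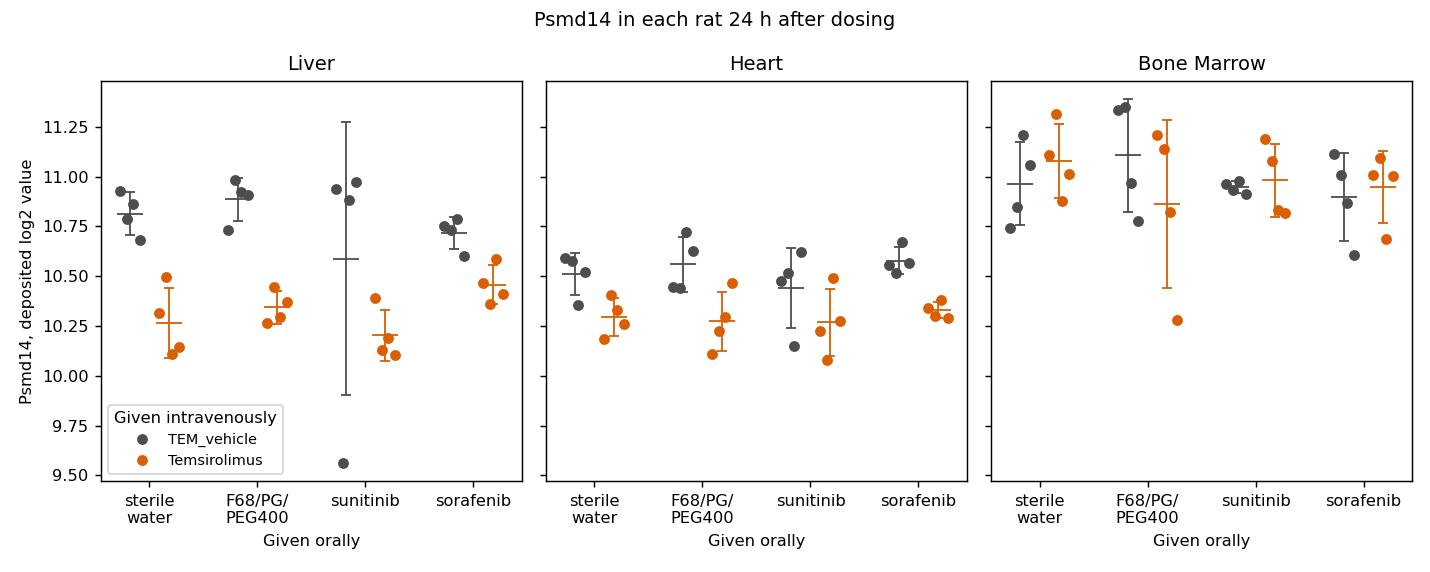
Psmd14 in each rat at 24 h in liver, heart and bone marrow (deposited log2 value), for TEM_vehicle (grey) and temsirolimus (orange) beside each oral agent, with bars for the mean ± SD of 4 rats. In the liver every temsirolimus rat lies below every TEM_vehicle rat of its oral agent other than rat 7M78 at 9.56, in the heart the pairs overlap except with sorafenib, and in the bone marrow all 4 pairs overlap.

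The heart gave a smaller change in the same gene. With oral vehicles, Psmd14 had a lowest, median and highest level of 10.36, 10.55 and 10.72 in 8 control hearts and 10.11, 10.28 and 10.47 in 8 treated hearts at 24 h. The groups overlapped, and the change was -0.25 ± 0.05 (adjusted p = 0.0068), with -0.21 in array set 1 and -0.29 in set 2. Psmd14 was the only proteasome gene called, where 0.317% of all genes were (45), and it was number 4 by p. In the rats given sunitinib or sorafenib the heart change was -0.21 ± 0.05 (adjusted p = 0.030), again the only call among the 41, with 0.281% of all genes called. With 1 rat of every group left out in turn, the first of these heart calls was lost in 3 of 4 fits (changes of -0.31 to -0.22, highest adjusted p = 0.41), as was the other (highest adjusted p = 0.73). With oral vehicles the hepatocyte marker level reached 11.79 in 1 treated heart group and at most 7.53 in the controls. With sunitinib it reached 11.53 in the treated hearts and 8.27 in their controls, and with sorafenib 9.65 and 8.63. With that level as a covariate, the changes were -0.25 and -0.20 (adjusted p = 0.0066 and 0.042). Over the 41 genes the median heart change was -0.03 and -0.07 in these comparisons.

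In the bone marrow Psmd14 changed by -0.07 ± 0.14 with temsirolimus at 24 h and was not called. The difference between tissues was itself tested within rats, with the same probe set in each tissue, which for Psmd14 was the one read in liver and heart. By that probe set the bone marrow change was 0.01. The change in the liver was more negative than in the bone marrow (difference -0.55 ± 0.10, adjusted p = 0.00057), the only call among the 41 genes where 0.95% of all genes were called. Between heart and bone marrow it was -0.26 (adjusted p = 0.15), and between liver and heart -0.29 (adjusted p = 0.30). The other probe sets of Psmd14 gave -0.39 and -0.81 in the liver and -0.16 and -0.20 in the heart. In the bone marrow they disagreed: 0.01 for that probe set, and 0.54 for the dimmest (adjusted p = 0.029 over all single-symbol probe sets), beside -0.07 for the probe set read there. Of all genes called under temsirolimus at 24 h, 12 were called in both liver and heart, 2.73% of the liver list and 26.7% of the heart list. All 12 had the same direction, and Psmd14 was the only proteasome gene among them.

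Psmd14 also differed between times in the livers of vehicle rats. The times also differ in array plates and hour of day, so time after dosing and plate cannot be told apart. It had a lowest, median and highest level of 10.34, 10.56 and 10.74 at 6 h and 10.68, 10.89 and 10.98 at 24 h, a rise of 0.29 ± 0.09 (adjusted p = 0.039). No other proteasome gene was called between these times, where 4.75% of all genes were. Without rat 7M78, the ATPases Psmc2 and Psmc6, the lid subunit Psmd7, Psmd5 and Psmd14 rose, with 9.68% of all genes called. Over all 16 livers with temsirolimus and 16 without at 24 h, 15 of the controls lay above every treated liver. This was so of 5 controls at 6 h and of 0 at 1 h. The temsirolimus change of Psmd14 at 24 h was more negative than at 1 h (difference -0.52 ± 0.12, adjusted p = 0.050, not called), and without rat 7M78 this difference was called (adjusted p = 9.1e-06).

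After sunitinib, 2 ATPase genes at 6 h and 3 core and ATPase genes at 24 h were higher in the heart, in calls that did not hold in all settings. At 6 h the ATPase Psmc5 was at 10.98, 11.04, 11.29 and 11.29 in the sterile water rats and 11.32, 11.42, 11.46 and 11.67 in the sunitinib rats, which did not overlap. The change was 0.32 ± 0.08 (adjusted p = 0.029), and Psmc1, an ATPase of the same ring, rose by 0.28 ± 0.08 (adjusted p = 0.044), where 2.45% of all genes were called. At 24 h Psma7, an alpha subunit, was at 11.58, 12.18, 12.24 and 12.26 in the controls and 12.28, 12.29, 12.31 and 12.55 with sunitinib. Rat 1M5 was the lowest control in Psma7 and in the next genes. The change of Psma7 was 0.29 ± 0.08 (adjusted p = 0.031), that of Psma5 0.24 ± 0.07 (adjusted p = 0.036) and that of the ATPase Psmc4 0.25 ± 0.07 (adjusted p = 0.024), where 3.58% of all genes were called. Psmc5 and Psmc1 each lost the call in 6 of 12 other settings, with none called without array-set terms or after renormalising, and Psma7, Psma5 and Psmc4 each in 5 of 11. With 1 rat of every group left out in turn, the count ran from 0 to 1 at 6 h and from 0 to 8 at 24 h, and it was 0 with array weights at 24 h. None of these genes was called in the rats that also received temsirolimus, and the interaction was not called. Of the other proteasome proteins, Akirin2, which carries proteasomes into the nucleus, rose by 0.93 ± 0.24, and Uchl5 and Txnl1, which bind the regulatory particle, fell by 0.42 and 0.30 at 24 h. The 14 hepatocyte markers had a median change of 0.71 in this heart comparison, and none passed the test. Their part in the result was not tested.

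Psmd10, a chaperone of the regulatory particle also known as gankyrin, differed in its sunitinib response between times in the heart. At 6 h it was at 9.41, 9.49, 9.61 and 9.69 in the controls and 9.75, 9.83, 9.83 and 9.94 with sunitinib. At 24 h it was at 9.55, 9.68, 9.71 and 9.71 in the controls and 8.57, 9.60, 9.62 and 9.65 with sunitinib, where rat 7M83 was the low value. The change at 24 h minus that at 6 h was -0.59 ± 0.16 (adjusted p = 0.027), the only call among the 41 genes where 4.56% of all genes were called.

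In the liver, sunitinib alone gave a call in Psmd5 at 24 h. It was at 10.67, 10.76, 10.81 and 10.87 in the controls and at 9.44 (rat 7M78), 10.70, 10.74 and 10.75 with sunitinib, a difference of -0.37 ± 0.13 (adjusted p = 0.049), where 9.99% of all genes were called. Without rat 7M78, limma called 0 of the 14218 genes there, with 346 at an unadjusted p under 0.05, of which 0 were proteasome genes. The median over the 41 genes went from -0.25 to 0.04 when that rat was left out. The sunitinib response at 24 h was more negative in the liver than in the heart for Psma5 (-0.44), Psma7 (-0.57), Psmc4 (-0.49) and the ubiquitin receptor Psmd4 (-0.58), where 2.81% of all genes were called. It was 0.39 more positive in the heart than in the bone marrow for Psmc4, where 0.549% were called. Without rat 7M78 the liver and heart comparison called none of the 41 genes. In the other 24 comparisons between tissues none of the 41 was called, with 0.115% of all gene tests called.

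Sorafenib was followed by calls in the exchanged subunits of the heart at 6 h, in rats that also received temsirolimus. Psmb9 was at 9.52, 9.60, 9.74 and 12.42 (rat 4M46) in the controls and at 9.36, 9.40, 9.41 and 9.52 with sorafenib. The difference was -0.90 ± 0.26 (adjusted p = 0.044), with -0.10 in array set 1 and -1.70 in set 2, which holds rat 4M46. Psmb10 (-0.70 ± 0.20) and the activator Psme2 (-0.48 ± 0.13) were also called, where 2.19% of all genes were. Without rat 4M46 none of the 41 genes was called, and limma gave 1 at an unadjusted p under 0.05. Of the 10 leukocyte markers 5 fell in the same comparison (median -0.52), as did 4 of 10 macrophage markers (median -0.66).

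Rat 4M46 was high in these genes in all of its tissues. Its Psmb9 was the highest of 96 arrays in each tissue: 12.42 in the heart, where its 3 group mates had 9.52 to 9.74, 12.64 in the liver against 10.80 to 11.54, and 11.47 in the bone marrow against 7.57 to 10.98. Psmb8 was likewise the highest of 96 in the heart (11.53), the liver (12.74) and the bone marrow (11.77), while Psmb10 and Psme2 were the highest in heart and liver and in places 4 and 19 in the bone marrow. The low end of the bone marrow range is rat 4M45.

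**Figure D4:**
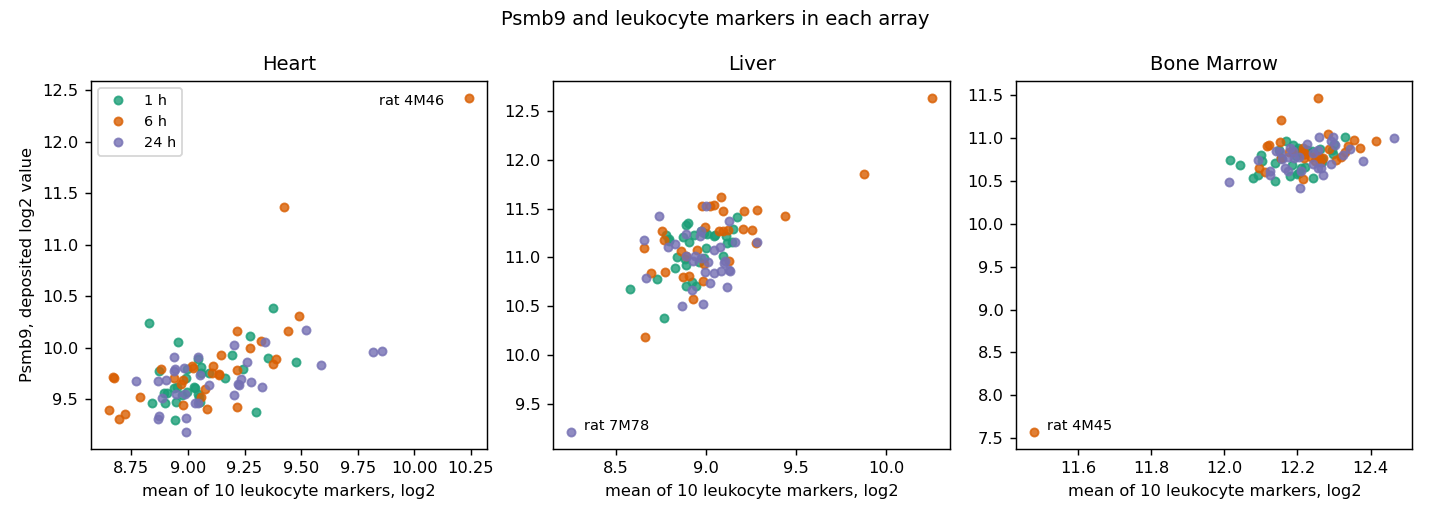
Psmb9 (vertical axis, deposited log2 value) against the mean of 10 leukocyte markers (horizontal axis, log2) in the 96 arrays of heart, liver and bone marrow, coloured by time, with axes scaled to each tissue. Rat 4M46 is the highest point of the heart at 12.42, rat 7M78 the lowest of the liver at 9.21 and rat 4M45 the lowest of the bone marrow at 7.57.

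The exchanged subunits varied together between rats of the same group. Over 94 hearts, and without the arrays of rats 4M46 and 6M68, the 3 pairs among Psmb8, Psmb9 and Psmb10 had a median correlation of residuals of 0.79. It was 0.79 over 94 livers without rats 7M78 and 4M48, and 0.62 over 95 bone marrows without rat 4M45. The array of rat 6M68 was left out for its hepatocyte markers. Over all pairs of genes the median was 0.02 in the heart and within 0.003 of 0 in the other tissues. In the livers Psmb10 was nearest to Psme2 (r = 0.91) and Psmb8 to Psmb9 (r = 0.86). Against the constitutive beta subunits the exchanged subunits had a median of 0.12 in the liver, and against 10 leukocyte markers 0.50. These medians were 0.48 and 0.43 in the heart, the other order, and 0.17 and 0.28 in the bone marrow. Other roles varied together as well: pairs of constitutive beta subunits had a median of 0.65 in the heart, 0.40 in the liver and 0.48 in the bone marrow. In contrast Psmd14 was nearest to the lid subunit Psmd6 in the liver (r = 0.70) and to Psmd12 in the heart (r = 0.66). These correlations describe values from the same arrays, which share their RNA and normalisation, and carry no test.

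None of the catalytic subunits was called in a single-drug comparison with all arrays. Psmb5, the chymotrypsin-like subunit, ranged from -0.25 to 0.003 over the 9 liver comparisons, from -0.03 to 0.06 in the heart and from -0.14 to 0.03 in the bone marrow. Psmb7, the trypsin-like subunit, ranged from -0.20 to 0.21 in the liver, from -0.09 to 0.17 in the heart and from -0.19 to 0.07 in the bone marrow. Among their exchange partners, Psmb8 ranged from -0.24 to 0.24, Psmb9 from -0.37 to 0.31 and Psmb10 from -0.22 to 0.19 over the 27 comparisons of the 3 tissues. The activator subunits Psme1 and Psme2 ranged from -0.25 to 0.16 and from -0.27 to 0.22. The standard errors of Psmb9 reached 0.26 and those of Psmb5 0.09, so a change of given size was harder to detect in Psmb9. Without rat 7M78, Psmb5 fell with temsirolimus in the liver at 24 h (-0.19, adjusted p = 0.0012), and its liver value with sunitinib was -0.03 in place of -0.25.

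In the bone marrow, sorafenib was followed by small decreases of Psmd2 and Psmb4 at 24 h. Psmd2 was at 11.32, 11.35, 11.36 and 11.40 in the F68/PG/PEG400 rats and at 11.04, 11.13, 11.15 and 11.21 with sorafenib, which did not overlap. The change was -0.22 ± 0.06 (adjusted p = 0.030), with -0.27 and -0.18 in the array sets. Psmb4, a structural beta subunit, went from 12.71, 12.79, 12.87 and 12.94 to 12.56, 12.63, 12.72 and 12.76, a change of -0.16 ± 0.05 (adjusted p = 0.037). These were 2 of 41 genes (4.88%), near the 3.7% of all genes that were called. All 41 values lay below 0, with a median of -0.16 against 0.001 for all genes, and 9 had an unadjusted p under 0.05, as had 2434 of all 14218 genes. Each of the calls was lost in 5 of 10 other settings, among them no array-set terms and renormalising by quantiles. The leukocyte marker level ranged from 12.17 to 12.26 in the controls and from 12.21 to 12.47 with sorafenib, the erythroid level from 12.77 to 12.93 and from 12.81 to 13.05, and the neutrophil level from 12.68 to 12.83 and from 12.74 to 13.03. Of these markers, 1 of 10 erythroid, 0 of 10 leukocyte and 0 of 7 neutrophil genes rose by the test, and their part in the result was not tested. With temsirolimus added, Psmd2 was at 11.08, 11.08, 11.09 and 11.22 (change against both vehicles -0.24 ± 0.06, adjusted p = 0.022), the only call among the 41 where 3.46% of all genes were called. Of 14 other proteasome proteins, 4 fell under sorafenib alone: the core assembly chaperones Psmg1 (-0.31) and Psmg2 (-0.42), and the deubiquitinases Usp14 (-0.24) and Uchl5 (-0.25).

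The largest count of calls came from 1 array. In bone marrow at 6 h, sorafenib in rats given temsirolimus was followed by 18 rises and 3 falls among the 41 genes, where 22.1% of all genes were called. Psmd8, for example, was at 6.62 in rat 4M45 of the control group and between 11.17 and 11.58 in the sorafenib rats, and its change was -0.02 in array set 1 and 2.37 in set 2. Without the array of rat 4M45, limma called 0 of 14218 genes, with 434 at an unadjusted p under 0.05, of which 1 was a proteasome gene.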

How the data were processed

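RNA of bone marrow, heart and liver was hybridised to Affymetrix Rat Genome 230 2.0 arrays. The deposited log2 values were made by the authors with RMA (background correction, quantile normalisation, median polish); the RMA version is not given in the sources used here. RMA makes arrays alike in distribution, so a shift common to all genes would not be seen. Of 31099 probe sets, 20832 were listed with 1 symbol, and 14218 genes were kept with 1 probe set each.

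Each tissue was fitted with limma 3.58.1 in R 4.3.3, with 24 group means and a term for the array set at each time. The 2 sets are stretches of the array names and hold 2 rats of each group each. P-values were adjusted by the Benjamini-Hochberg method over all genes. Between tissues, differences within the same rat were fitted, so that the rat was the pairing, with the probe set of highest mean over all tissues. Genes were named by a rule: up to 3 rises and 3 falls per single-drug comparison with the value in every rat, up to 8 more called genes by change, and always the catalytic, exchanged and activator subunits. The genes, lists and rule were chosen with earlier results of these data known. The alternatives without the heart array of rat 4M46, and without both liver arrays of rats 7M78 and 4M48, were chosen after seeing the data.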

Additional observations from a re-analysis of the deposited data

Results flagged for a closer look

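Single rats stood far from the other 3 of their group, by the gap to the nearest rat divided by the range of the group, and were picked where this ratio passed Dixon's 95% critical value for 4 samples, which chance alone does in about 1 in 20 groups. For the mean of the 41 genes, 5 of 72 groups passed it, and for single genes 13 of 62 pairs of gene and group. The 62 pairs were only part of all pairs, and several of those that passed came from the same arrays. Their count therefore cannot be set against the rate of 1 in 20. The mean of the 41 genes was low in the bone marrow of rats 4M45 (ratio 0.88, at 6 h) and 6M71 (0.922). It was also low in the heart of rat 1M5 (0.86) and in the livers of rats 2M17 (0.884) and 7M78 (0.99). Rat 2M17 was also low in Psma1 (0.878) in the liver. In the heart, rat 1M5 was low in Psma5 (0.887) and Psma7 (0.876), rat 7M83 was high in Psma7 (0.867), and rat 4M46 was high in Psmb10 (0.873) and Psmb9 (0.925). In the liver, rat 7M78 was low in Psmd14 (0.937) and Psmd5 (0.956), and rat 4M48 was low in Psmd5 (0.945) and Psmd8 (0.852). For Psmd2, rat 6M72 was high in the bone marrow (0.901), rat 1M12 low in the liver (0.882) and rat 3M30 high in the liver (0.963).

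Some drug effects differed between times or tissues by a test of the difference itself, with limma. The effect of sunitinib on Psmd10 in the heart was -0.593 at 24 h relative to 6 h. The effect of temsirolimus on Psmd14 at 24 h was -0.553 in the liver relative to the bone marrow. That of sunitinib at 24 h on Psmc4 was 0.386 in the heart relative to the bone marrow. Relative to the heart, sunitinib in the liver gave -0.437 for Psma5, -0.571 for Psma7, -0.494 for Psmc4 and -0.575 for Psmd4, and none of these was called without rat 7M78.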

How the results depend on the processing

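Of 31 single-gene calls, 223 repeats under another setting kept the call, 146 lost it with the same direction and none reversed. Counts of called proteasome genes moved more. For temsirolimus alone in the liver at 24 h the count was 7, with 0 to 19 when 1 rat of each group was left out in turn, 24 with array weights, 17 after renormalising by quantiles, 21 without rat 7M78, 17 without rats 7M78 and 4M48, 2 without the array the study names for quality, 2 with F68/PG/PEG400 as the sole vehicle and 1 with sterile water as the sole vehicle. In rats given an oral drug it was 1 (0 to 2), with 11, 8, 6 and 7 under the first 4 of those settings and 2 with the mean of all probe sets. For temsirolimus with sunitinib it was 1 (0 to 2), with 7, 2, 4 and 5. For time in vehicle livers it was 1 (0 to 2), with 6, 5, 5 and 6, 3 with the leukocyte level as a covariate and 2 without the array the study names. For sunitinib alone in the liver it was 1 (0 to 30), 3 with a signal of at least 6 or without the array the study names, and 0 with array weights, the leukocyte covariate, the mean of probe sets, no array-set terms, renormalising, or without rat 7M78 alone or with rat 4M48. In the 37 liver comparisons with no call it was 0 (0 to 4), 29 with array weights, 6 with the leukocyte covariate, 2 with the signal filter, 1 with the mean of probe sets, 7 after renormalising, 5 without rat 7M78 and 7 without both rats.

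In the heart, temsirolimus alone gave 1 (0 to 1) and 0 with F68/PG/PEG400 alone or the mean of probe sets, and with oral drugs 1 (0 to 1), 2 with array weights or renormalising and 0 with no array-set terms. Sunitinib alone gave 3 at 24 h (0 to 8), 0 with array weights and 1 with no array-set terms, and 2 at 6 h (0 to 1), 0 with no array-set terms or renormalising. Between these times it was 1 (0 to 1), 2 with the mean of probe sets and 0 after renormalising. Sorafenib with temsirolimus at 6 h gave 3 (0 to 4), 1 with array weights, and 0 with the leukocyte covariate, no array-set terms or without rat 4M46. The 36 comparisons with no call gave 0 (0 to 7), 32 with array weights, 2 with the mean of probe sets, and 1 with either covariate, the signal filter, renormalising or without rat 4M46.

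In the bone marrow, sorafenib alone gave 2 (0 to 7), 14 with array weights and 0 with no array-set terms or renormalising. With temsirolimus it gave 1 at 24 h (0 to 1), 10 with array weights and 0 after renormalising, and at 6 h 21 (0 to 28), 12 with no array-set terms and 0 with array weights or without rat 4M45. The 39 comparisons with no call gave 0 (0 to 2), 21 with F68/PG/PEG400 alone, 13 with array weights and 1 without rat 4M45.

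Between tissues, where the rat is the block, temsirolimus gave 1 for liver against bone marrow (0 to 1) and 2 after renormalising or without rat 7M78. Sunitinib gave 1 for heart against bone marrow (0 to 1), 0 with no array-set terms, and 4 for liver against heart (0 to 11), 0 after renormalising or without rat 7M78. The other 24 gave 0 (0 to 2), 3 after renormalising and 2 without rat 7M78. With no replicate block, the counts were 1, 1, 6 and 0, and the Psmd14 difference was -0.55 as with the block. The causes of these moves were not tested. The number of arrays and the signal over background limit what small changes can be detected.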
